A study of Mus musculus with 12 samples.

Results

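Genes of mitochondrial fatty acid oxidation and of branched-chain amino acid oxidation were examined in mouse mesenchymal stem cells (MSCs), with and without p38α and with and without TGF-β. The list holds 45 genes, chosen for their place in these pathways and for a few regulators. It was chosen with earlier results of these data known. Of its genes, 39 could be measured among 17097 genes in all. A gene was counted as measured when a probeset of the array, a set of short probes for 1 transcript, was annotated to that gene alone, and the probeset with the highest mean over the 12 arrays was used. Acsl1, Acad10, Hadha and Ivd had no probeset listed for them, and those of Etfb and Ppargc1a were shared with a second gene, so no value is given for these 6.

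The 12 Affymetrix MG-430 PM arrays fell into 4 groups. WT MSCs (4 arrays, labelled CTRO) carried floxed Mapk14 alleles, the gene of p38α, and a Cre recombinase that a drug switches on, and had received vehicle. p38α∆ MSCs (2 arrays, labelled KO) were the same kind of cell after treatment with that drug, 4-hydroxytamoxifen. TGF-β-treated WT MSCs (3 arrays) and TGF-β-treated p38α∆ MSCs (3 arrays) received 5 ng/ml TGF-β for 20 h. The cells of all groups came from mouse bone marrow, were immortalized by serial passage, were labelled as FVB/NJ, where the study's methods name C57BL/6 J for its mice, and were starved in 0.5% serum. The drug was given to p38α∆ cells only, so the loss of p38α and the exposure to the drug cannot be told apart. The sources do not say how old the donors of these cells were or whether the arrays of a group came from separate cultures, so p-values measure the spread between these arrays, which may be technical.

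The values are log2 expression values from RMA, a method that corrects background, equalizes arrays and summarizes the probes of a set, and the number of arrays limits their precision. Mapk14 itself averaged 9.06 in WT and 9.02 in p38α∆ MSCs (log2 difference 0.00, adjusted p = 1 in limma), and since it is not stated whether its probeset lies in the deleted part, these values are no check of the labels. The 4 arrays numbered 1, 1 in each group, stood apart from the other 8 on the first principal component (47.5% of the variance, −41.0 to −23.1 against 2.1 to 31.1), and TGF-β separated the arrays on the second (27.8%). Of 10 measured MSC and pericyte markers, 7 lay above the median level of all genes (5.11). So did 2 of 8 adipocyte, 1 of 5 hepatocyte and 1 of 5 epithelial markers, but 0 of 8 muscle, 0 of 7 endothelial and 0 of 6 leukocyte markers. The adipocyte markers averaged from 3.10 to 7.57. Adipoq and Lep, which define fat cells, lay near the bottom of the scale in every array (2.99 to 3.34 and 2.95 to 3.24), as did Ptprc of leukocytes (2.67 to 2.97). The arrays numbered 1 had higher values for 10732 of the 17097 genes, by a median of 0.09. Their means of the adipocyte (4.68 to 4.81 against 4.39 to 4.60), muscle (3.95 to 4.15 against 3.73 to 3.86), endothelial (3.65 to 3.78 against 3.46 to 3.56) and epithelial markers (4.21 to 4.50 against 3.83 to 4.08) were also above those of the other arrays. Those of the MSC and pericyte (6.73 to 6.86 against 6.71 to 6.99), leukocyte (3.31 to 3.45 against 3.33 to 3.42) and hepatocyte markers (4.11 to 4.41 against 3.88 to 4.17) overlapped. The part of the shift of the arrays numbered 1 in the results was not tested.

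Long-chain fatty acids are first joined to coenzyme A, then carried across the inner mitochondrial membrane as carnitine esters, and then shortened in repeated turns of dehydrogenation, hydration, a second dehydrogenation and thiolytic cleavage. The electrons of the first step reach the respiratory chain through an electron transfer flavoprotein. Leucine, isoleucine and valine are largely broken down in the same compartment after transamination, and part of their carbon leaves as propionyl-CoA, which is turned into succinyl-CoA. Nuclear receptors of the PPAR family, which are activated by fatty acids, are known to drive many of these genes in liver, heart and muscle.

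TGF-β lowered a set of fatty acid oxidation genes in both genotypes. In WT MSCs, 9 of the 39 measured genes fell and 2 rose, 28.2% of the list, where 9.38% of all genes passed (5.36% lower and 4.02% higher). In p38α∆ MSCs, 7 fell and none rose, 17.9% of the list, where 8.4% of all genes passed (4.97% lower and 3.43% higher). The median log2 change of the list was −0.22 in WT and −0.21 in p38α∆ MSCs, against −0.01 and −0.00 over all genes. Since the list was chosen with earlier results of these data known, these shares and medians describe it and are no test. A gene passed at a Benjamini-Hochberg adjusted p under 0.05 over all genes in a limma fit of the 12 arrays. Cpt1a, Cpt2, Acot2, Acadm, Echs1 and Acaa2 fell in both genotypes. Acsl4 and Bcat1 rose and Cpt1c, Bcat2 and Mmut fell with a call in WT MSCs alone, Eci2 in p38α∆ MSCs alone, and 27 genes passed in neither. Without the treated WT array 3 the count in WT MSCs was 7, and without array 1 of either p38α∆ group that in p38α∆ MSCs was 4. With arrays of one number treated as unrelated, the counts were 6 and 3. No difference between the responses of the genotypes passed (0 of 39 genes, and 0% of all genes), with 1 of 39 at an unadjusted p under 0.05 in limma and 920 of all genes, so the genes called in 1 genotype are not shown to respond differently in the other.

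The treated and untreated arrays did not overlap at all for 2 genes that were higher and 10 that were lower with TGF-β in WT MSCs, where 13.4% of all genes were apart (5.37% higher and 7.99% lower). In p38α∆ MSCs, 1 gene was apart and higher and 14 apart and lower, where 21.9% of all genes were apart (9.67% higher and 12.2% lower). The estimated change had the same sign in both genotypes for 34 of the 39 genes. That count was not made over all genes, so the agreement is not shown to be particular to the list. The groups compared in the 2 genotypes share no array. Both changes came from 1 fit of all 12 arrays, with arrays of one number related across groups, so they are not independent.

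**Figure D1:**
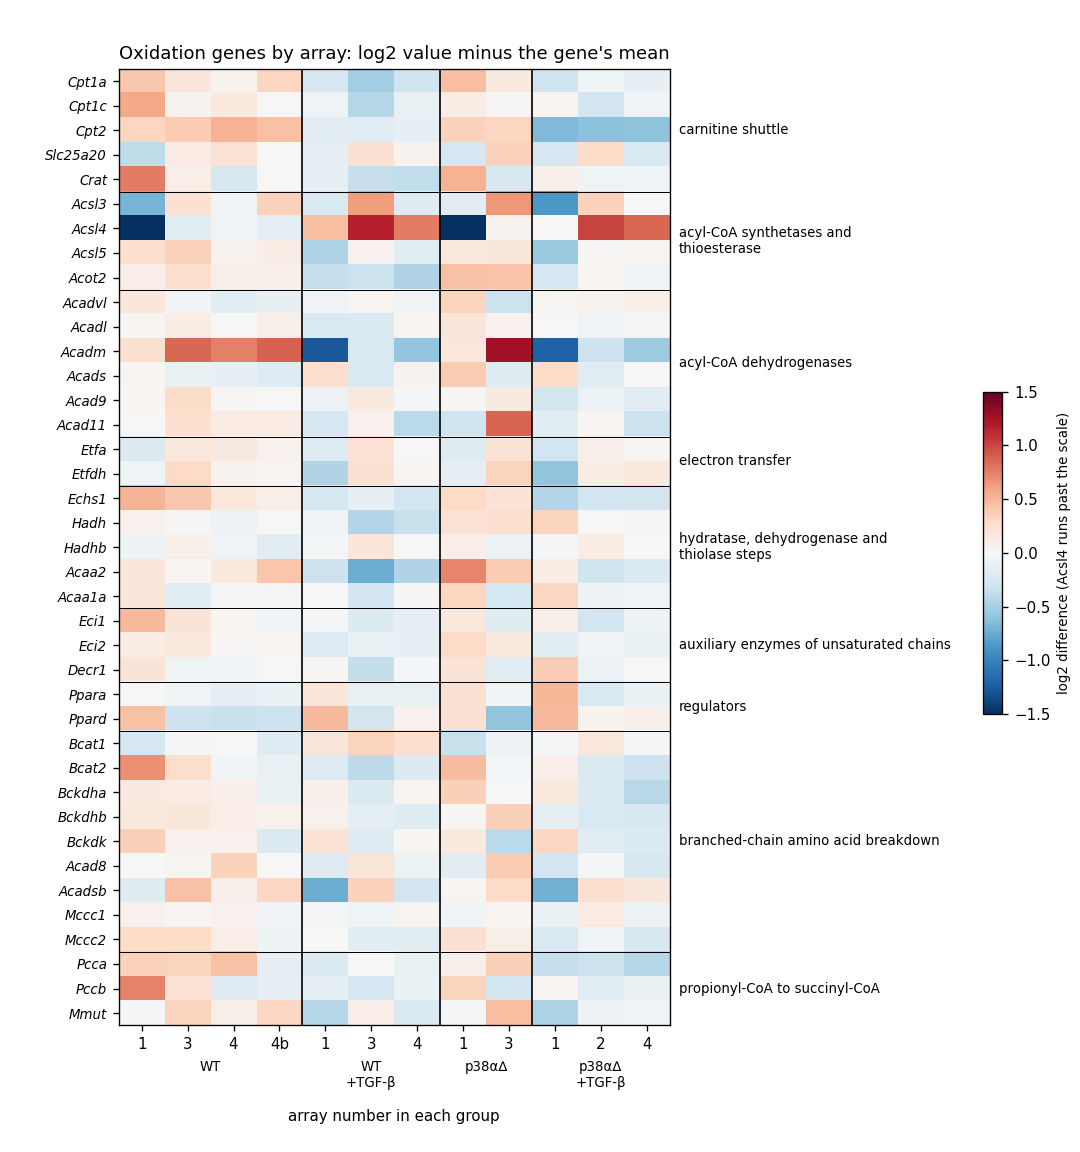
Heat map of the 39 measured genes (rows, grouped by role) in the 12 arrays (columns, grouped by condition and marked with the array's number), with color for the log2 value minus the gene's mean over the 12 arrays. Cpt1a, Cpt2, Acadm and Echs1 are red to pale in the untreated groups and blue to pale in the treated groups, while Acsl4 is lowest in the untreated arrays numbered 1, beyond the end of the scale.

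Promoter sequences were set beside these changes. RefSeq promoters (mouse build GRCm38.p6, the 250 bases before the annotated start) were listed for 34 of the 39 measured genes and for 8 of the 10 that fell in either genotype. Nuclear receptors of the PPAR and ERR families bind elements built on the letters AGGTCA, searched on both strands (TGACCT on the other). These letters stood in 8 of the 34 promoters (23.5%) and in 15.8% of those of 27025 genes, and in 4 of the 8 promoters of genes that fell (Acadm, Cpt1a, Cpt1c and Echs1). The direct repeat of these letters with 1 base between the copies, the form that PPARs bind, stood in none of the 34 and in 0.0407% of all genes, and the extended form TCAAGGTCA, which contains the shorter letters, in none of the 34 and in 0.422%. CAGAC, the letters of the Smad box through which TGF-β signalling reaches DNA, stood in 19 of 34 (55.9%) and in 45.8% of all genes. Of the 8 promoters of genes that fell, 4 held CAGAC as well (Acot2, Bcat2, Cpt1a and Echs1). The 4 promoters below are those of Acadm, Cpt1a and Echs1, which fell in both genotypes and hold the AGGTCA letters, in capitals on either strand, and of Cpt2, which had the lowest adjusted p of the list and holds none. They lie at chr3:153944644-153944893 (minus strand), chr19:3323051-3323300 (plus strand), chr7:140116422-140116671 (minus strand) and chr4:107923590-107923839 (minus strand), each upstream of the transcript and written 5′ to 3′ in the gene's own direction. Counted back from the annotated start, the letters begin at −249 in Acadm, −94 in Cpt1a and −83 in Echs1. A match in a window this short is a description and not a bound site.
Acadm: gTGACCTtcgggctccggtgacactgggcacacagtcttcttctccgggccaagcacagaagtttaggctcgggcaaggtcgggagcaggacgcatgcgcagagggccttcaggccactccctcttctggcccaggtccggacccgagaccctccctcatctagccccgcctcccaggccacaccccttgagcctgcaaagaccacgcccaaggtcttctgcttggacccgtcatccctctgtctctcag
Cpt1a: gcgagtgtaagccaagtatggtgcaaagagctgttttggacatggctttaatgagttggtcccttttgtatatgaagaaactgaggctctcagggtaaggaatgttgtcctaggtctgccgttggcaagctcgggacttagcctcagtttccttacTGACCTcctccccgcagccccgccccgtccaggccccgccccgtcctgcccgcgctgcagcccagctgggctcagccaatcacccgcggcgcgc
Echs1: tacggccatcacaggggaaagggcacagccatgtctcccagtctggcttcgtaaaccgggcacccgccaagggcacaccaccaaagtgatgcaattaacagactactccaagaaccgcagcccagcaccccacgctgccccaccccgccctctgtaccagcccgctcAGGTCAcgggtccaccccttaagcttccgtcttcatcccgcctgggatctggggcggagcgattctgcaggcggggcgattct
Cpt2: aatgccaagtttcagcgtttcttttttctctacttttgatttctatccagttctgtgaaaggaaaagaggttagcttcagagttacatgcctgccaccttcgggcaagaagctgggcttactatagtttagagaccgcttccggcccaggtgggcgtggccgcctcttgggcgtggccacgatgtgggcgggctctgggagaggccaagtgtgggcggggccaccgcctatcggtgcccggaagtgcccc

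By role, counts are small, and the shares of all genes that were lower, 5.36% in WT and 4.97% in p38α∆ MSCs, are the background of each. In the carnitine shuttle, 3 of 5 measured genes fell in WT and 2 in p38α∆ MSCs. Cpt2, the inner membrane enzyme that releases the fatty acid from carnitine inside the mitochondrion, had log2 values of 6.26, 6.32, 6.46 and 6.38 on WT arrays, 5.77, 5.78 and 5.81 on treated WT arrays, 6.28 and 6.26 on p38α∆ arrays and 5.28, 5.31 and 5.33 on treated p38α∆ arrays. The treated arrays lay below the untreated ones in both genotypes without overlap, and the treated p38α∆ arrays were the lowest of all. Cpt2 fell by 0.56 in WT (SE 0.06, adjusted p = 9.49e-05 in limma), or 1.47-fold, and fell by 0.99 in p38α∆ MSCs (SE 0.08, adjusted p = 1.15e-05), or 1.99-fold. It kept both calls in every alternative that was run.

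Cpt1a, the outer membrane enzyme that commits fatty acids to import, had values of 8.08, 7.86, 7.74 and 8.01 on WT arrays, 7.44, 7.16 and 7.39 on treated WT arrays, 8.13 and 7.82 on p38α∆ arrays and 7.39, 7.62 and 7.57 on treated p38α∆ arrays. Its treated arrays were below the untreated ones in each genotype. Cpt1a fell by 0.59 in WT (SE 0.10, adjusted p = 0.00199), and fell by 0.52 in p38α∆ MSCs (SE 0.13, adjusted p = 0.0224). The call in p38α∆ MSCs was lost without the arrays numbered 1, where Cpt1a changed by −0.25 (adjusted p = 0.371), and without the p38α∆ array 1 or 3 or the treated p38α∆ array 1 (adjusted p = 0.255, 0.0534 and 0.142). Cpt1c, a relative of Cpt1a known mainly from neurons, had values of 8.35, 7.83, 7.92 and 7.76 on WT arrays and 7.71, 7.34 and 7.67 on treated WT arrays, with array 1 highest in the untreated group. It fell by 0.40 in WT (SE 0.11, adjusted p = 0.0429), while p38α∆ arrays at 7.88 and 7.80 and treated p38α∆ arrays at 7.81, 7.49 and 7.73 overlapped (−0.15, SE 0.14, adjusted p = 0.646). The call of Cpt1c was lost on leaving out any 1 of 9 arrays, all but WT array 4b and the treated p38α∆ arrays 1 and 4. Slc25a20, the carrier of acylcarnitines, changed by 0.06 and −0.14 (−0.16 and −0.13 with its other probeset), and Crat, which handles short acyl chains, by −0.47 in WT (adjusted p = 0.0832) and −0.11 in p38α∆ MSCs.

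**Figure D2:**
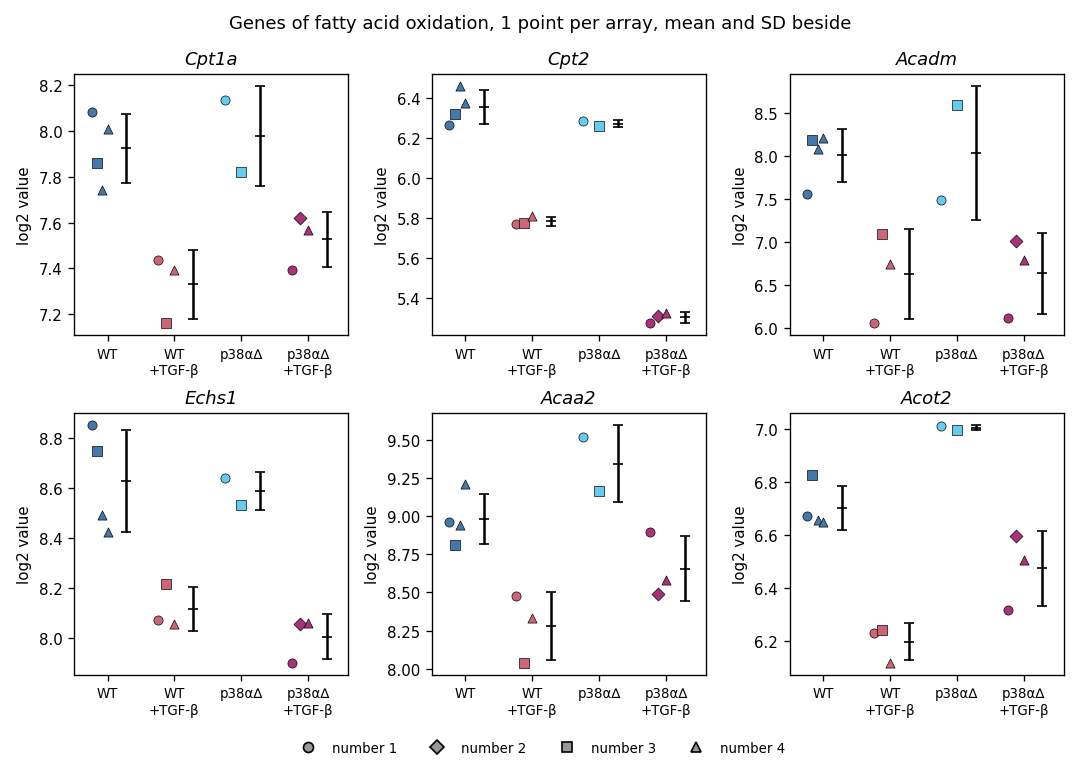
Log2 values of the 6 genes that fell with TGF-β in both genotypes. Each symbol is an array, shaped by its number (with 4b as 4), and the bars give mean and SD per group (n = 4, 3, 2 and 3). The treated arrays lie below the untreated arrays of their genotype in every panel, and Cpt2 is lowest in TGF-β-treated p38α∆ MSCs at 5.28 to 5.33.

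Among the enzymes that join fatty acids to coenzyme A or free them again, 1 of 4 measured genes rose and 1 fell in WT MSCs, and 1 fell in p38α∆ MSCs. Acsl4, an acyl-CoA synthetase with a preference for arachidonic acid that also feeds membrane lipids, had values of 5.12, 7.28, 7.40 and 7.30 on WT arrays, 7.89, 8.61 and 8.21 on treated WT arrays, 5.82 and 7.50 on p38α∆ arrays and 7.43, 8.46 and 8.31 on treated p38α∆ arrays. Within each group the array numbered 1 was the lowest. Acsl4 rose by 1.54 in WT (SE 0.34, adjusted p = 0.0133), and gave 1.34 in p38α∆ MSCs (SE 0.45, adjusted p = 0.0949), where the groups overlapped. Its 2 other probesets gave 1.68 and 1.01 for WT cells, then 1.73 and 1.33 for p38α∆ cells, with unadjusted p from 1.22e-05 to 0.00117. Without the arrays numbered 1 the change in p38α∆ MSCs was 0.91 (adjusted p = 0.0141, with 1 untreated array left), and it passed there too without WT array 1 (1.39). In WT MSCs the call was lost without the treated WT array 1 or 3 (adjusted p = 0.0867 and 0.0557). It was also lost with arrays of one number treated as unrelated.

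Acot2, a mitochondrial thioesterase that frees long-chain acids from coenzyme A, had values of 6.67, 6.83, 6.66 and 6.65 on WT arrays, 6.23, 6.24 and 6.12 on treated WT arrays, 7.01 and 6.999 on p38α∆ arrays and 6.32, 6.60 and 6.51 on treated p38α∆ arrays. The treated arrays were lower in both genotypes, and the p38α∆ arrays of either treatment were all above the WT arrays of the same treatment. Acot2 fell by 0.51 in WT (SE 0.07, adjusted p = 0.000733), and fell by 0.53 in p38α∆ MSCs (SE 0.09, adjusted p = 0.00425). The probeset used is of a type that can match related transcripts, such as those of its near-identical relative Acot1. The other probeset of Acot2, which is not of that type, gave −0.26 and −0.44. Between the genotypes that other probeset gave 0.27 without TGF-β and 0.09 with it. Without the p38α∆ array 1, Acot2 did not pass in p38α∆ MSCs (−0.47, adjusted p = 0.0755), nor without all arrays numbered 1 (−0.42, adjusted p = 0.0623). Acsl5, a synthetase of outer mitochondrial and reticulum membranes, changed by −0.37 (adjusted p = 0.105) and −0.34 (adjusted p = 0.304), and Acsl3, a synthetase of lipid droplets, by 0.13 and −0.45, without a call.

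The acyl-CoA dehydrogenases carry out the first dehydrogenation, each on its own range of chain lengths, and 1 of the 6 measured fell in each genotype. That gene was Acadm, the medium-chain enzyme, at 7.55, 8.18, 8.07 and 8.20 on WT arrays, 6.05, 7.09 and 6.74 on treated WT arrays, 7.48 and 8.58 on p38α∆ arrays and 6.11, 7.01 and 6.78 on treated p38α∆ arrays. Every treated array was below every untreated array, and in each group the array numbered 1 was the lowest. Acadm fell by 1.35 in WT (SE 0.17, adjusted p = 0.000313), or 2.54-fold, and fell by 1.42 in p38α∆ MSCs (SE 0.22, adjusted p = 0.00182), or 2.67-fold, the largest falls on the list in both genotypes. Within numbers 1, 3 and 4 the change in WT MSCs was −1.50, −1.09 and −1.40. The very long-chain enzyme Acadvl (0.01 and 0.05), the long-chain enzyme Acadl (−0.19 and −0.17), the short-chain enzyme Acads (0.12 and −0.05), Acad9, which also helps to assemble respiratory complex I (−0.07 and −0.21), and Acad11 (−0.34 and −0.34) passed in neither genotype. Without the arrays numbered 1, which left 1 untreated p38α∆ array, Acadvl (0.41) and Acad11 (−0.98) passed in p38α∆ MSCs. Etfa and Etfdh, which take the electrons onward, changed by −0.02 to −0.21 and neither passed, nor did either reach an unadjusted p under 0.05 in limma.

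Of the 5 measured genes of the later steps, 2 fell in each genotype. Echs1, the short-chain enoyl-CoA hydratase, which also serves valine breakdown, had values of 8.85, 8.75, 8.49 and 8.42 on WT arrays, 8.07, 8.22 and 8.06 on treated WT arrays, 8.64 and 8.53 on p38α∆ arrays and 7.90, 8.05 and 8.06 on treated p38α∆ arrays. No treated array reached an untreated one. Echs1 fell by 0.53 in WT (SE 0.09, adjusted p = 0.00372), and fell by 0.54 in p38α∆ MSCs (SE 0.12, adjusted p = 0.0184), the latter lost without the p38α∆ array 1 or 3 or the treated p38α∆ array 1 (adjusted p = 0.207, 0.0523 and 0.124), without all arrays numbered 1 (adjusted p = 0.108) and with the number as a term of the fit (adjusted p = 0.0595). Acaa2, the thiolase that cleaves off acetyl-CoA, had values of 8.96, 8.81, 8.94 and 9.21 on WT arrays, 8.47, 8.04 and 8.34 on treated WT arrays, 9.52 and 9.16 on p38α∆ arrays and 8.90, 8.49 and 8.58 on treated p38α∆ arrays. The treated arrays were the lower ones within each genotype, while the treated p38α∆ arrays reached into the range of untreated WT arrays. Acaa2 fell by 0.69 in WT (SE 0.10, adjusted p = 0.00109), and fell by 0.73 in p38α∆ MSCs (SE 0.13, adjusted p = 0.00507), and its 2 other probesets gave −0.93 and −0.82 for WT cells, then −0.66 and −0.39 for p38α∆ cells. Without the p38α∆ array 1 it did not pass in p38α∆ MSCs (−0.66, adjusted p = 0.0854), nor without all arrays numbered 1 (−0.67, adjusted p = 0.0529).

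Hadh, the dehydrogenase of short hydroxyacyl chains, was just short of a call in WT (−0.29, SE 0.09, adjusted p = 0.0565) and gave −0.07 in p38α∆ MSCs. Hadhb, a subunit of the trifunctional protein of long chains, changed by 0.10 and 0.04, and Acaa1a, a thiolase of peroxisomes whose probeset is also of the type that can match a relative, by −0.09 and −0.01. Eci2, an isomerase that moves double bonds of unsaturated chains, had values of 7.02, 7.07, 6.93 and 6.95 on WT arrays, 6.72, 6.82 and 6.79 on treated WT arrays, 7.20 and 7.07 on p38α∆ arrays and 6.74, 6.88 and 6.80 on treated p38α∆ arrays. Treated and untreated arrays were apart in both genotypes by small distances. Eci2 fell by 0.33 in p38α∆ MSCs (SE 0.09, adjusted p = 0.0348), and gave −0.22 in WT MSCs (SE 0.07, adjusted p = 0.0555). Without the arrays numbered 1 the change in p38α∆ MSCs was −0.21 (adjusted p = 0.267), and the call was also lost without array 1 or 4 of the treated p38α∆ group, array 1 of the p38α∆ group or array 4 of the treated WT group, and with the number as a term of the fit (adjusted p = 0.0912). Its partners Eci1 (−0.30 and −0.02) and Decr1, a reductase of the same route (−0.15 and 0.08), did not pass, and the other probeset of Decr1 gave −0.32 and −0.52.

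Neither measured regulator passed. Ppara, the receptor that drives these genes in liver, was near the bottom of the scale with values of 3.91, 3.85, 3.77 and 3.82 on WT arrays, 4.09, 3.80 and 3.81 on treated WT arrays, 4.14 and 3.87 on p38α∆ arrays and 4.41, 3.68 and 3.81 on treated p38α∆ arrays (changes of 0.04 and 0.06). Ppard, the more widely expressed receptor, had values of 8.31, 7.57, 7.54 and 7.55 on WT arrays, 8.36, 7.60 and 7.93 on treated WT arrays, 8.10 and 7.28 on p38α∆ arrays and 8.36, 7.92 and 7.95 on treated p38α∆ arrays. The array numbered 1 was the highest of each group, 0.65 above the others on average, and treated and untreated arrays overlapped. Ppard changed by 0.19 in WT (SE 0.14, adjusted p = 0.491) and 0.39 in p38α∆ MSCs (SE 0.18, adjusted p = 0.254). Its other probeset gave 0.32 and 0.36 (unadjusted p = 0.017 and 0.0317 in limma). Without the arrays numbered 1, which left 1 untreated p38α∆ array, the probeset used gave 0.63 in p38α∆ MSCs.

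**Figure D3:**
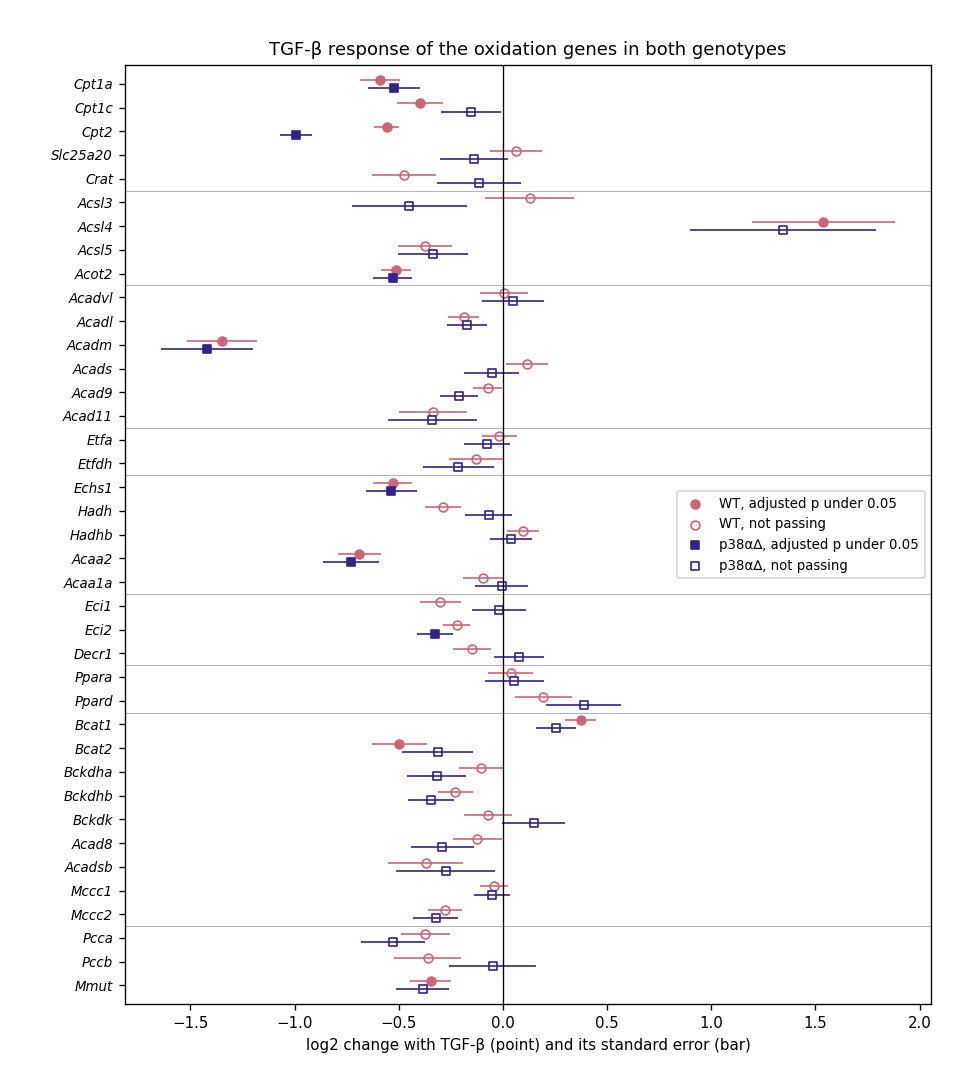
Log2 change with TGF-β (horizontal axis) of the 39 measured genes, ordered by role and divided by lines, with the standard error as a bar, circles for WT and squares for p38α∆ MSCs, and filled symbols for an adjusted p under 0.05. Acadm has the lowest values (−1.35 and −1.42), Acsl4 the highest (1.54 and 1.34), and Cpt2 lies at −0.56 and −0.99.

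Of 12 measured genes of branched-chain and propionate breakdown, 1 rose and 2 fell in WT MSCs and none passed in p38α∆ MSCs. The genes that passed are 25% and 0% of the 12, beside 9.38% and 8.4% of all genes. In p38α∆ MSCs, 6 of the 12 had an unadjusted p under 0.05 in limma, as did 3420 of all 17097 genes. The median change was −0.25 in WT and −0.30 in p38α∆ MSCs. The first step is catalysed by 2 transaminases, and they moved in opposite directions in WT MSCs. Bcat1, the cytosolic one, had values of 10.42, 10.66, 10.69 and 10.49 on WT arrays, 10.86, 11.02 and 10.93 on treated WT arrays, 10.34 and 10.60 on p38α∆ arrays and 10.66, 10.85 and 10.66 on treated p38α∆ arrays. Treated arrays were above untreated ones in both genotypes. Bcat1 rose by 0.37 in WT (SE 0.07, adjusted p = 0.00716) and gave 0.25 in p38α∆ MSCs (SE 0.10, adjusted p = 0.155). Its 2 other probesets gave 0.34 and 0.78 in WT MSCs, then 0.25 and 0.50 in p38α∆ MSCs.

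Bcat2, the mitochondrial transaminase, had values of 8.26, 7.84, 7.53 and 7.47 on WT arrays, 7.39, 7.18 and 7.37 on treated WT arrays, 8.04 and 7.56 on p38α∆ arrays and 7.66, 7.36 and 7.27 on treated p38α∆ arrays. The arrays were apart in WT MSCs and overlapped in p38α∆ MSCs, and the array numbered 1 was the highest of each group. Bcat2 fell by 0.50 in WT (SE 0.13, adjusted p = 0.0327), with differences of −0.88, −0.66 and −0.13 within numbers 1, 3 and 4, and gave −0.31 in p38α∆ MSCs (adjusted p = 0.354). Without the arrays numbered 1, Bcat2 did not pass in WT MSCs (−0.34, adjusted p = 0.145), nor without array 1 or 3 of either WT group alone (adjusted p from 0.1 to 0.174).

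The branched-chain keto acid dehydrogenase commits the carbon chains to oxidation, and neither its subunits Bckdha (−0.10 and −0.32) and Bckdhb (−0.23 and −0.35) nor its inhibiting kinase Bckdk (−0.07 and 0.15) passed. Bckdhb was apart and lower in both genotypes, and without the arrays numbered 1 it passed in p38α∆ MSCs (−0.58). Acad8, of valine breakdown, changed by −0.12 and −0.29, and Acadsb, of isoleucine breakdown, by −0.37 and −0.27. The subunits of the leucine enzyme methylcrotonyl-CoA carboxylase gave −0.04 and −0.05 (Mccc1) and −0.28 and −0.32 (Mccc2, adjusted p = 0.053 and 0.094). The subunits of propionyl-CoA carboxylase gave −0.37 and −0.53 (Pcca, adjusted p = 0.0722 and 0.0553) and −0.36 and −0.05 (Pccb), without a call.

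Mmut (listed as Mut), the cobalamin-dependent mutase that makes succinyl-CoA, had values of 7.59, 7.95, 7.71 and 7.93 on WT arrays, 7.20, 7.72 and 7.41 on treated WT arrays, 7.61 and 8.07 on p38α∆ arrays and 7.16, 7.55 and 7.57 on treated p38α∆ arrays. The treated WT array numbered 3 lay inside the untreated range, and within numbers 1, 3 and 4 the WT differences were −0.39, −0.23 and −0.41. Mmut fell by 0.35 in WT (SE 0.10, adjusted p = 0.0461) and gave −0.39 in p38α∆ MSCs (SE 0.13, adjusted p = 0.0963). Its call was lost on leaving out any 1 of 9 arrays, all but WT array 4 and the treated p38α∆ arrays 1 and 4. The 2 other probesets of Mmut, with low means of 3.11 and 4.33 beside 7.62 for the probeset used, gave 0.08 and −0.19 in WT MSCs.

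**Figure D4:**
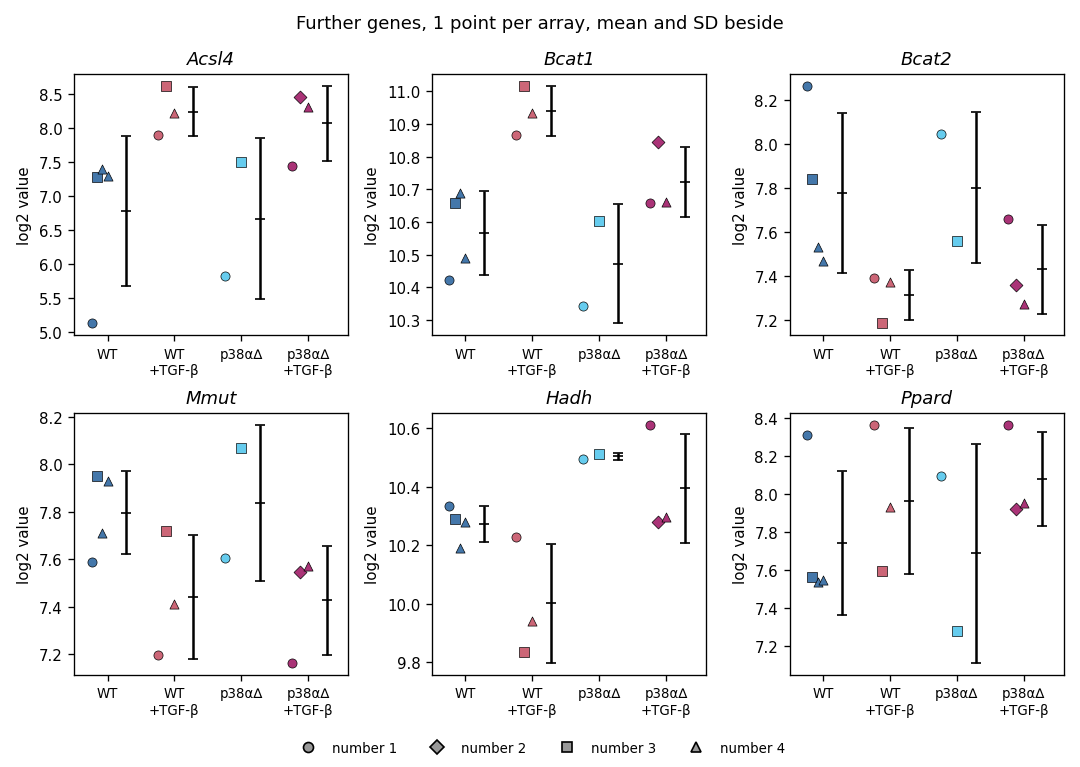
Log2 values of Acsl4, both transaminases, Mmut, Hadh and Ppard. Each symbol is an array, shaped by its number (with 4b as 4), and the bars give mean and SD per group (n = 4, 3, 2 and 3). The arrays numbered 1 (circles) are the lowest of each group for Acsl4 and the highest for Bcat2 and Ppard.

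Without TGF-β, no gene of the list passed the test between p38α∆ and WT MSCs (0 of 39, and 0% of all genes), with 2 of 39 at an unadjusted p under 0.05 in limma and 841 of all genes. Those were Acot2 (0.28, 95% interval 0.10 to 0.47) and the thiolase Acaa2 (0.39, 0.12 to 0.66), each with an adjusted p of 0.982. The 2 other probesets of Acaa2 gave 0.21 and 0.10 (unadjusted p = 0.125 and 0.442 in limma). The other probeset of Acot2 gave 0.27 (unadjusted p = 0.00922). The arrays of the genotypes were apart for Acot2 and Hadh, both higher in p38α∆ MSCs, where 6.52% of all genes were apart (3.52% higher). The median difference of the list was 0.02.

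With TGF-β, 1 gene of the list was lower in p38α∆ than in WT MSCs and none was higher, where 0.45% of all genes passed (0.0819% lower and 0.368% higher). That gene was Cpt2, whose treated p38α∆ arrays (5.28 to 5.33) were all below the treated WT arrays (5.77 to 5.81). Cpt2 differed by −0.49 (SE 0.07, 95% interval −0.63 to −0.34, adjusted p = 0.0119), and by −0.49 within number 1 and −0.48 within number 4. Without TGF-β it differed by −0.05 (95% interval −0.21 to 0.10). The difference between its TGF-β responses was −0.43 (SE 0.10, unadjusted p = 0.00088, adjusted p = 0.513), so it did not pass over all genes. The genotype call was lost in 6 of 20 alternatives with the value between −0.50 and −0.48, among them those without the treated WT array 1, the treated WT array 4 or the treated p38α∆ array 4 (adjusted p = 0.0629, 0.0597 and 0.0809). The others were those without the arrays numbered 1, with the number as a term of the fit and with arrays of one number treated as unrelated (adjusted p = 0.0926, 0.0774 and 0.0601).

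The treated arrays of the genotypes were apart for 8 genes of the list, 5 higher in p38α∆ MSCs (Crat, Acot2, Acadvl, Hadh and Acaa2) and 3 lower (Cpt2, Bcat1 and Pcca), where 8.71% of all genes were apart (5.26% higher and 3.45% lower). Hadh had values of 10.23, 9.83 and 9.94 on treated WT arrays and 10.61, 10.28 and 10.30 on treated p38α∆ arrays. Its difference of 0.41 (SE 0.10, 95% interval 0.19 to 0.62) did not pass (adjusted p = 0.116), nor did those of Acot2 (0.27, adjusted p = 0.269), Acaa2 (0.35, adjusted p = 0.335) and Bcat1 (−0.21, adjusted p = 0.48). Acaa2 was also higher with its 2 other probesets, by 0.48 and 0.52, while the other probeset of Acot2 gave 0.09 (unadjusted p = 0.292 in limma).

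Further genes of these pathways were read from the same fit. Of 25 other genes of mitochondrial fatty acid oxidation and import, 2 fell in WT MSCs and none passed in p38α∆ MSCs. The 2 were the acyl-CoA synthetases Acsf2 (−0.41, adjusted p = 0.0326) and Acsf3 (−0.35, adjusted p = 0.0412). The shares that passed, 8% and 0%, lie below the 9.38% and 8.4% of all genes. In p38α∆ MSCs, 5 of the 25 had an unadjusted p under 0.05 in limma, as did 3420 of all 17097 genes. Of 15 other branched-chain and propionate genes, 3 fell and 1 rose in WT and 4 fell in p38α∆ MSCs, 26.7% in each genotype beside the same 9.38% and 8.4%. Mmab, which makes the cobalamin cofactor of Mmut, fell by 0.75 in WT (SE 0.13, adjusted p = 0.00362), and fell by 1.12 in p38α∆ MSCs (SE 0.17, adjusted p = 0.00188). Mmaa, which guards the loading of that cofactor, fell by 0.44 and 0.49, and Klf15, a transcription factor known to drive branched-chain breakdown in muscle, by 0.67 and 0.71. Mmachc, of cobalamin processing, fell by 0.65 in p38α∆ MSCs, and Slc25a44, the mitochondrial carrier of branched-chain amino acids, rose by 0.33 in WT MSCs.

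In peroxisomes, a second site of fatty acid oxidation, 2 of 16 genes fell in each genotype, a share of 12.5% near that of all genes (9.38% in WT and 8.4% in p38α∆ MSCs). Abcd2, a transporter of very long-chain acyl-CoA, fell by 0.82 in WT and 0.85 in p38α∆ MSCs, Hacl1, of the breakdown of branched fatty acids, by 0.56 in WT, and Acox3, an oxidase of branched acyl-CoA, by 0.56 in p38α∆ MSCs. Of 16 PPAR and ERR partners and targets, 2 fell and 1 rose in each genotype, or 18.8%. Between treated genotypes 2 of the 16 passed (12.5%, beside 0.45% of all genes). Txnip, which restrains glucose uptake, fell by 1.56 in WT (adjusted p = 7.69e-06) and fell by 2.47 in p38α∆ MSCs (adjusted p = 2.43e-06), and was lower on treated p38α∆ than on treated WT arrays (−0.78, adjusted p = 0.0311). The hormone Fgf21 rose by 0.80 and 1.31. Rxra, the shared partner of the PPARs, fell by 0.23 in WT, and Lpin1, a phosphatidate phosphatase and coactivator, fell by 1.79 in p38α∆ MSCs. Angptl4, a secreted inhibitor of lipoprotein lipase, was higher on treated p38α∆ than on treated WT arrays (0.56, adjusted p = 0.0383).

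The pathways that take up the products of these oxidations held no call, where 9.38% of all genes passed in WT and 8.4% in p38α∆ MSCs. At these shares, lists of this size would hold few calls. None of 19 TCA cycle genes passed in either genotype by limma (median changes −0.03 and 0.01), with 3 in WT and 0 in p38α∆ MSCs at an unadjusted p under 0.05. None of 28 respiratory chain genes passed (medians −0.07 and −0.03), with 1 and 0 at an unadjusted p under 0.05. None of 3 genes of ketone metabolism passed, with 0 and 0 at that threshold. Of all 17097 genes, 3597 in WT and 3420 in p38α∆ MSCs were at an unadjusted p under 0.05 in limma. The TCA cycle genes ranged from −0.26 to 0.18 in WT MSCs and the respiratory chain genes from −0.25 to 0.11, while the 27 fatty acid genes of the list ranged from −1.35 to 1.54. In p38α∆ MSCs these ranges were −0.37 to 0.20, −0.31 to 0.27 and −1.42 to 1.34.

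**Figure D5:**
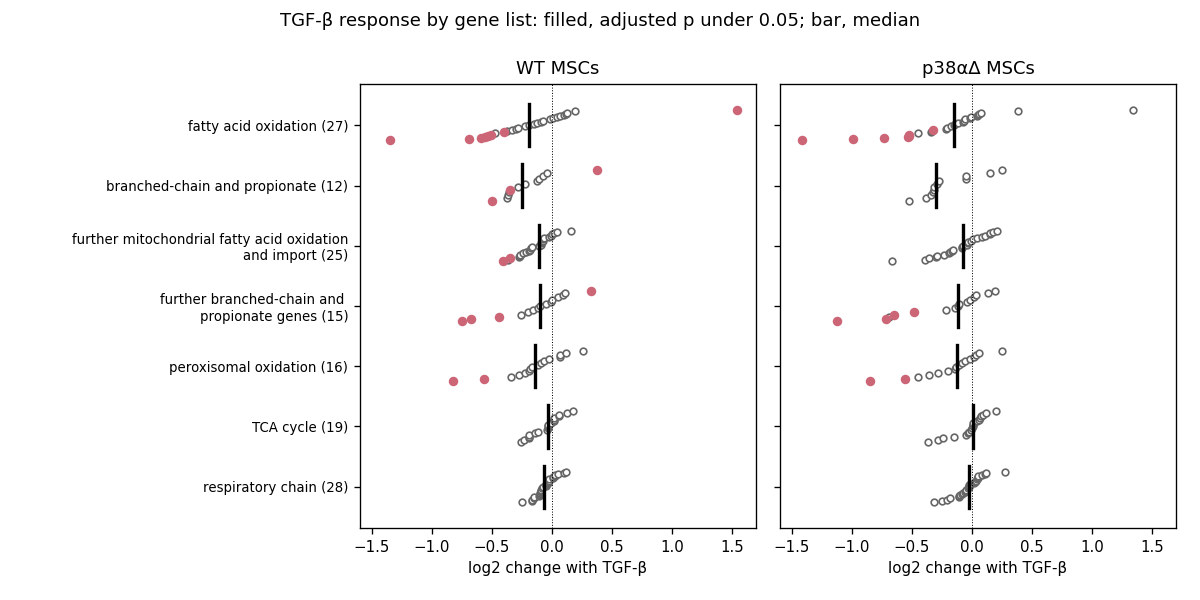
Log2 change with TGF-β (horizontal axis) in WT (left) and p38α∆ MSCs (right) of the 27 fatty acid and 12 branched-chain and propionate genes of the list and of 5 further lists, 1 point per gene, filled where the adjusted p was under 0.05, with the median as a bar. The TCA cycle and respiratory chain genes lie close to 0 without a filled point, with medians from −0.07 to 0.01.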

How the data were processed

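RNA of 12 samples was amplified and hybridised to Affymetrix MG-430 PM arrays. Per the labels, RMA was the authors' normalization, and their paper names limma with scanning batch as a covariate, but the sources do not say which array was in which batch. The deposited values are log2 expression values, 1 per probeset, and were used as deposited. Of 45101 probesets, 28898 were annotated to 1 gene, 551 to several and 15652 were unlisted, from GEO's platform annotation with symbols updated through RefSeq. The probeset with the highest mean represented a gene. In R 4.3.3, limma 3.58.1 (lmFit, eBayes) fitted 4 group means to the 12 arrays, with arrays of one number (4b counted as 4) related through duplicateCorrelation (0.488) in place of the batch, and p-values, two-sided, were adjusted over 17097 genes by Benjamini-Hochberg. Without the arrays numbered 1 this correlation was estimated at 0.113. The fit was tested on simulated data that gave every number the same relation between its arrays, so that test is no check of this assumption. Values in every array are given for genes of the list that passed in any of 5 comparisons and for Cpt1a, Cpt2, Ppara, Ppard, Bcat1 and Bcat2, and for Hadh, which was chosen after its values were seen; of other lists, genes that passed are named. The members and lists were chosen with earlier results of these data known. Alternatives changed the relation of the arrays, the probeset, a filter on low values, the normalization and the arrays used. The sequences are RefSeq promoters.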

Additional observations from a re-analysis of the deposited data

Results flagged for a closer look

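In the untreated WT group of 4 arrays, 1 array lay far from the other 3 for 5 of the 39 genes, measured as its gap to the nearest array over the group's range and judged by Dixon's 95% critical value for 4 values. Chance gives about 5% of genes where the 4 arrays are independent, but arrays 4 and 4b share a number, so this share may not hold here. WT array 1 was the low one for Acsl4 (gap 0.95, at 5.12 against 7.28 to 7.40) and the high one for Ppard (0.966, at 8.31 against 7.54 to 7.57). WT array 3 was the high one for Acot2 (0.882, at 6.83 against 6.65 to 6.67) and for Acad9 (0.904, at 8.10 against 7.82 to 7.85). WT array 4 was the high one for Acad8 (0.91, at 5.92 against 5.58 to 5.61). Without WT array 1 the TGF-β response of Acsl4 still passed in WT MSCs. Over 20 alternatives the size of that response ranged from 1.08 to 1.78. The other groups, of 2 or 3 arrays, were not looked at in this way.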

How the results depend on the processing

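Most calls depended on how arrays of one number were related. With no replicate block, 6 genes of the list passed with TGF-β in WT MSCs (11 in the fit reported), 3 in p38α∆ MSCs (7) and 0 between the genotypes with TGF-β (1). With the replicate block as its own term the counts were 11, 5 and 0. The deviations of arrays of one number from their group means correlated by 0.645 to 0.845 for numbers 1 and 3. For number 4 they correlated by 0.0236 to 0.305, so the numbers are not shown to pair the arrays. The untreated p38α∆ group holds arrays 1 and 3 alone, so their deviations are equal and opposite by construction. This ties the correlations of numbers 1 and 3 to each other in part, and arrays of different numbers were not set beside them. Without the arrays numbered 1 the counts were 10, 7 and 0, but the 7 in p38α∆ MSCs were 3 higher and 4 lower and shared Cpt2 and Acadm alone with the 7 reported, with 1 untreated p38α∆ array left, assumed to vary like the other groups. Leaving out 1 array at a time gave 7 (without the TGF-β-treated WT array 3) to 15 (without the TGF-β-treated p38α∆ array 1) in WT MSCs, 4 (without array 1 of either p38α∆ group) to 8 in p38α∆ MSCs, 0 to 1 between the genotypes with TGF-β (0 without the TGF-β-treated WT array 1 or 4 or the TGF-β-treated p38α∆ array 4), and 0 in every case between untreated genotypes and for the difference of the responses. Another rule for the probeset, all probesets tested, the lowest 25% of genes left out, renewed quantile normalization and, in WT MSCs, a fit of the compared groups alone gave 8 to 12 in WT and 7 to 8 in p38α∆ MSCs, where the fit of the compared groups alone could not be run because 1 pair of arrays cannot give a correlation. In WT MSCs the 6 genes called in both genotypes kept their call in 20 of 20 alternatives, Cpt1c and Mmut lost it in 14, Bcat2 in 9, Acsl4 in 3 and Bcat1 in 1. In p38α∆ MSCs only Cpt2 kept its call in all 19. The 32 changes followed most closely, of 14 genes, kept their direction in 626 combinations with an alternative, of which 71 lost and 7 gained a call. Over the TGF-β changes of all 39 genes the direction turned in 54 of 1521 combinations, in 17 genes, none of them called before or after, and at most from −0.34 to 0.10 (Acad11 in p38α∆ MSCs, without the p38α∆ array 3). The causes were not tested. Signal over background is not part of the deposited values, and Ppara in particular lies near the bottom of their scale.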
